A study of Mus musculus with 6 samples.

Results

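The class 1 and class 2 phosphoinositide 3-kinases (PI3Ks) are encoded by 10 of the 56305 genes in the liver RNA-Seq table, and their transcripts were compared between mice with and without hepatic Vps15, the regulatory subunit of the class 3 enzyme. The members were found by matching the Ensembl identifiers of the table to GRCm38 gene symbols, and the matching itself used no measured value. They are Pik3ca, Pik3cb, Pik3cd and Pik3cg (class 1 catalytic subunits), Pik3r1, Pik3r2 and Pik3r3 (class 1A regulatory subunits), and Pik3c2a, Pik3c2b and Pik3c2g (class 2 enzymes). The data hold 1 library from each of 6 livers, 3 WT and 3 Vps15LKO, of male mice aged 5 weeks, kept on standard chow and collected at ZT6, which is 6 h after lights on in a 12 h light and 12 h dark cycle. Vps15LKO mice carry AlbCre and Vps15 f/f, a Cre driven by the albumin promoter and active in hepatocytes. The sources used here call the controls WT and do not spell out whether they carry the floxed alleles. Deletion is chronic, the RNA is of whole liver with all its cell types, and the recombined locus is described as giving a truncated protein.

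Class 1 PI3Ks pass signals from receptor tyrosine kinases, Ras and G protein-coupled receptors to Akt by making phosphatidylinositol trisphosphate (PIP3) at the plasma membrane. In class 1A a catalytic subunit (alpha, beta or delta) is held by a regulatory subunit encoded by Pik3r1, Pik3r2 or Pik3r3, while the class 1B gamma subunit pairs with the products of Pik3r5 or Pik3r6. The alpha and beta subunits are made in most tissues and serve insulin signalling in hepatocytes, whereas delta and gamma are known chiefly from leukocytes. Class 2 enzymes work as single large proteins without such a regulatory subunit and make phosphatidylinositol 3,4-bisphosphate and phosphatidylinositol 3-phosphate on endosomes and other membranes, and the gamma isoform Pik3c2g is known for its restriction to a few tissues, liver among them.

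Recovered reads summed to 16137093 to 18110223 in WT and 17937021 to 18088708 in Vps15LKO libraries, but the DESeq2 size factors of the authors were 0.742 to 0.801 in WT and 1.23 to 1.41 in Vps15LKO. Values below are normalized counts (reads divided by the size factor of the library) unless given per kb of exon. Giving all libraries an equal total of reads instead, called total-read scaling below, moved the median log2 fold change of all 15430 genes tested by 0.72, from -0.017 to 0.70. Directions that turn with this choice are given beside each result, and a change in the deposited scaling is close to a change relative to the median gene. Pik3r4, which encodes Vps15, measured 508, 573 and 459.7 normalized counts in WT and 341, 362 and 355 in Vps15LKO livers, and fell to a ratio of 0.687 (log2 fold change -0.54 ± 0.107 SE, adjusted p = 0.00207, limma with Benjamini-Hochberg), though with total-read scaling it was at 0.19 and not called. Whole-gene counts also take in exons outside the deleted part, so they are a partial check of the deletion. Liver identity was checked on 9 hepatocyte markers, all detected, whose normalized counts summed to 3054050 to 3388900 over WT and 1000250 to 1485970 over Vps15LKO livers. Of these 9 markers, 7 fell and 2 were not called (median log2 fold change -1.48, or -0.76 with total-read scaling). One of the uncalled markers was Alb, albumin, at 2350420, 2169880 and 2030860 in WT and 786995, 968935 and 620735 in Vps15LKO livers. Its groups did not overlap (ratio of means 0.363, log2 fold change -1.48 ± 1.38 SE, adjusted p = 0.366 by limma with a trend), and it was called lower by limma without a trend, edgeR, DESeq2 and voom (adjusted p = 0.000462, 0.0093, 2.53e-16 and 0.000614).

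Before the values, the sequence upstream of 4 members is shown, because the 3 members with the largest fold changes held fewer CpG dinucleotides there than the other 7. Each run is the 250 bases before the most upstream RefSeq start (GRCm38.p6), 5′ to 3′ on the strand of the gene, with every CpG in capitals. Pik3cd lies at chr4:149698709-149698958 (minus strand), Pik3cg at chr12:32208660-32208909 (minus), Pik3c2g at chr6:139613822-139614071 (plus) and Pik3cb at chr9:99140212-99140461 (minus).
Pik3cd: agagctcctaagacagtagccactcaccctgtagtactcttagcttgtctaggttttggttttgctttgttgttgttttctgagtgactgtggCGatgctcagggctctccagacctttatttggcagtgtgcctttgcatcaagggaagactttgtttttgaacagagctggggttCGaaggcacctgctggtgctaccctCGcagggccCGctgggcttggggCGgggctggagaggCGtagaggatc
Pik3cg: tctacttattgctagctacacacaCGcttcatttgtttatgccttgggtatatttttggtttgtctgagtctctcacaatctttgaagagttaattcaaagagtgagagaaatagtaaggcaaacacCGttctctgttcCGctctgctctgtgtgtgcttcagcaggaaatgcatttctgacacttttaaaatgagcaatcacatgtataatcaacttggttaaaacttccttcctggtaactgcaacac
Pik3c2g: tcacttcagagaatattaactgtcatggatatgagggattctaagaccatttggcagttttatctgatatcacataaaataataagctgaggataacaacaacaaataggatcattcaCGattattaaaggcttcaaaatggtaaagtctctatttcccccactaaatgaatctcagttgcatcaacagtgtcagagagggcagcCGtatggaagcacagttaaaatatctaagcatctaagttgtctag
Pik3cb: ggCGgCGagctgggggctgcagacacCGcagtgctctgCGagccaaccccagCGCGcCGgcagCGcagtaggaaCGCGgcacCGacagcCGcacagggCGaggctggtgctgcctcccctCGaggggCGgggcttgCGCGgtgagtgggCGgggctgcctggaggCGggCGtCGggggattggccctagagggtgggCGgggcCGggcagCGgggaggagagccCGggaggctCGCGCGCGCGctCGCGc

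These windows held 6, 3 and 2 CpGs for Pik3cd, Pik3cg and Pik3c2g, against 32 for Pik3cb and 18 to 32 over the other 7 members. Those 7 include Pik3r3, which was also called higher and held 23. Their GC content was 53.6%, 38.8% and 36%, against 61.6 to 78% in the other 7. Of the 32851 windows in the RefSeq table, 53.7% held 6 CpGs or fewer and 21.7% held 18 or more, so few CpGs was the common state. The count depends on which start is taken, since other annotated starts of Pik3cd reached 19 CpGs and other starts of Pik3r1 and Pik3r3 had 6, while both starts of Pik3cg and of Pik3c2g held 5 or fewer. The feature was chosen after the fold changes were known and is a description. The clock E-box, with the letters CACGTG on either strand, was in 0 of the 10 member windows and in 6.02% of all windows. The PU box, with the letters GAGGAA on either strand, was in 1 of 10 (Pik3c2b) and in 23.3% of all windows.

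In Vps15LKO livers, Pik3cd, Pik3cg and Pik3r3 rose, Pik3c2g fell, Pik3ca fell in the deposited scaling but not with total-read scaling, and the other 5 members (Pik3cb, Pik3r1, Pik3r2, Pik3c2a and Pik3c2b) were not called. A call needed a fold of 1.2 or more and an adjusted p below 0.05 (limma with Benjamini-Hochberg over 15430 genes). The 2 leukocyte-type catalytic subunits gave the largest rises and Pik3c2g the largest fall. All 10 members passed the filter of 20 normalized counts in at least 3 livers. Pik3cg was under 20 in WT replicate 1, so it needed Vps15LKO livers to pass. The counts of 3 higher and 2 lower stand beside 33.5% of all genes tested called higher and 33.0% called lower, so members were not called more often than other genes in either direction. The median log2 fold change was -0.11 over the members and -0.017 over all genes tested. With total-read scaling 9 members were called higher and 1 (Pik3c2g) lower, beside 66.7% and 11.1% of all genes, with a member median of 0.61 against 0.70. The 3 WT and 3 Vps15LKO values did not overlap for 3 members that were higher (Pik3cd, Pik3cg and Pik3r3) and 3 that were lower (Pik3ca, Pik3r2 and Pik3c2g), beside 36.4% and 36.8% of all genes. The labels do not tie the 3 livers of a genotype to separate litters or batches. The limma p-values weigh the genotype difference against a spread between these livers that borrows from all genes tested.

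**Figure D1:**
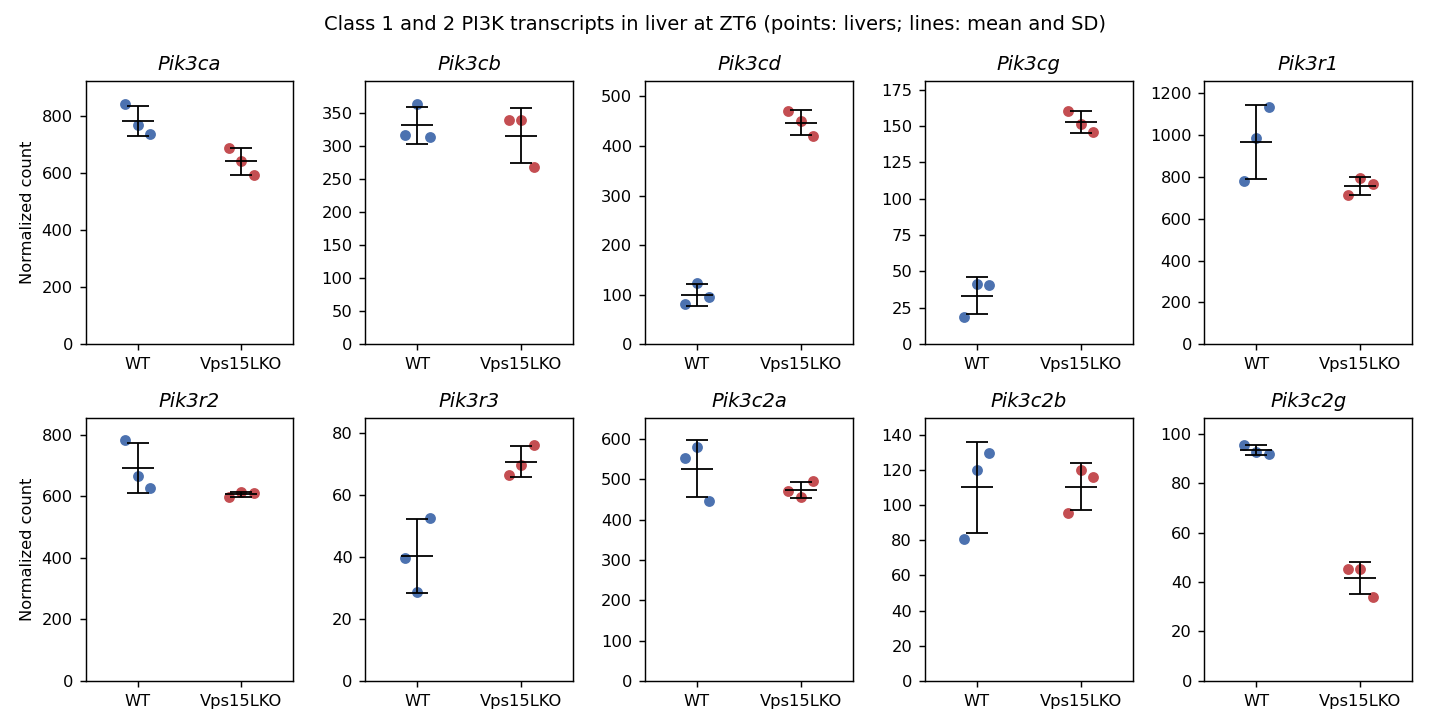
Normalized count (vertical axes, from 0, each panel on its own scale) of the 10 class 1 and class 2 PI3K genes in 3 WT (blue) and 3 Vps15LKO (red) livers at ZT6, with the mean and SD as black lines. Pik3cd and Pik3cg sit at 420.1 or more and 145.7 or more in every Vps15LKO liver, against at most 123.7 and 41.2 in WT, and Pik3c2g sits at 45.4 or less against at least 91.7.

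Pik3ca encodes the alpha catalytic subunit, the main class 1 isoform of insulin signalling. It measured 842, 769 and 739 normalized counts in WT and 688, 641 and 594 in Vps15LKO livers. All 3 Vps15LKO livers were below all 3 WT livers, by a modest margin. Its log2 fold change was -0.29 ± 0.097 (SE, n = 3 livers per genotype, 95% interval -0.51 to -0.07, adjusted p = 0.0266 by limma with Benjamini-Hochberg). With total-read scaling the same gene was called higher, at 0.44, and with quantile normalization it was not called, at -0.17. The call was kept in 2 of the 6 fits that left out 1 liver and was lost without WT replicate 1 (adjusted p = 0.078), WT replicate 2 (0.0541), Vps15LKO replicate 2 (0.0571) or Vps15LKO replicate 3 (0.0879) in the same limma test.

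Pik3cb, the beta catalytic subunit, which also responds to G protein-coupled receptors, measured 317, 363 and 313 in WT and 338, 339.5 and 267 in Vps15LKO livers. The genotypes overlapped, and the log2 fold change was -0.077 (95% interval -0.37 to 0.22, adjusted p = 0.617 by limma). A called rise of 0.65 appeared with total-read scaling.

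Pik3cd encodes the delta catalytic subunit, best known from B and T lymphocytes and myeloid cells. It measured 80.9, 123.7 and 94.4 normalized counts in WT and 470.4, 449.7 and 420.1 in Vps15LKO livers, from 61 to 99 and 555 to 616 reads. The genotypes were far apart, with a ratio of means of 4.48. On the log2 scale the change was 2.17 ± 0.161 (SE, adjusted p = 9.62e-06, limma with Benjamini-Hochberg), and it was called higher in all 22 alternatives, between 1.96 with quantile normalization and 2.90 with total-read scaling.

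Pik3cg, the gamma catalytic subunit, works downstream of chemokine receptors in myeloid cells. It measured 18.6, 41.2 and 40.4 in WT and 160.4, 151.5 and 145.7 in Vps15LKO livers. WT replicate 1 was the lowest, on 14 reads, and all Vps15LKO livers lay above all WT livers. The change on the log2 scale was 2.24 ± 0.292 (SE, adjusted p = 0.000186, limma with Benjamini-Hochberg) and ranged from 1.87 to 2.43 when 1 liver was left out, with a ratio of means of 4.57. Its 95% interval, 1.57 to 2.91, was the widest of the members.

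None of the class 1A regulatory subunits changed as much as Pik3cd or Pik3cg. Pik3r1, whose gene gives an adaptor of insulin signalling and shorter isoforms that a gene count adds together, measured 779.7, 987 and 1134 in WT and 712, 794 and 765 in Vps15LKO livers. WT replicate 1 lay among the Vps15LKO values. Between genotypes the log2 fold change was -0.34 ± 0.137 (SE, 95% interval -0.65 to -0.023, adjusted p = 0.056 by limma), just short of a call. Without WT replicate 1 it was called lower at -0.48 (adjusted p = 0.0062, limma), edgeR and DESeq2 on the recovered reads also called it lower (adjusted p = 0.0407 and 0.0461), and total-read scaling turned it to a called rise of 0.39.

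Pik3r2, the second adaptor of this kind, measured 782, 665 and 625 in WT and 596, 613 and 609 in Vps15LKO livers. The Vps15LKO livers were all lower, by a narrow margin, and the log2 fold change of -0.18 (95% interval -0.42 to 0.055) was not called, with an adjusted p of 0.151 by limma. It was called lower with upper-quartile scaling (-0.28) and higher with total-read scaling (0.54). Its exons share 45 bp with 6330537M06Rik on the opposite strand.

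Pik3r3, a smaller adaptor known from brain, measured 39.8, 28.7 and 52.6 in WT and 66.4, 69.7 and 76.4 in Vps15LKO livers. All Vps15LKO livers were higher, and the log2 fold change was 0.84 ± 0.237 (SE, adjusted p = 0.0127, limma with Benjamini-Hochberg). It ranged from 0.62 to 1.04 when 1 liver was left out and was called each time, but with quantile normalization it was 0.25 and not called. Pik3r3 rests on 23 to 39 reads in WT and 86 to 108 in Vps15LKO livers, and 24.3% of its exon bases (1289 bp) are shared with Gm49337, a protein-coding gene on the same strand that took 4 to 21 reads per library. Reads in the shared part could be assigned to either gene or to neither.

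The class 2 enzymes split into 2 that were not called and 1 that fell. Pik3c2a, the widely made alpha isoform of endocytosis and endosomes, measured 553, 581 and 447.5 in WT and 471, 456 and 495 in Vps15LKO livers. The genotypes overlapped (log2 fold change -0.14, 95% interval -0.41 to 0.12, adjusted p = 0.3 by limma), but total-read scaling gave a called rise of 0.58. The antisense gene Gm44777 shares 1369 bp, 12.3% of its exon bases, and reads of the 2 genes cannot be told apart unless the counting used strand, which the sources used here do not state.

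Pik3c2b, the beta isoform, measured 80.9, 119.9 and 129.4 in WT and 95.5, 119.9 and 116 in Vps15LKO livers. These values interleave. Its log2 fold change was 0.027 (95% interval -0.43 to 0.49, adjusted p = 0.916 by limma), and its sign turned with upper-quartile scaling (-0.069) and quantile normalization (-0.40). With total-read scaling it was called higher at 0.75.

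Pik3c2g was the 1 member that fell under every setting tried. It measured 95.5, 92.4 and 91.7 in WT and 45.1, 45.4 and 33.9 in Vps15LKO livers. The WT livers lay close together and all Vps15LKO livers were below them, with a ratio of means of 0.445. The fall on the log2 scale was -1.16 ± 0.178 (SE, adjusted p = 0.000459, limma with Benjamini-Hochberg), between -1.68 with quantile normalization and -0.45 with total-read scaling (adjusted p = 0.0487, limma). In plain reads it had 68 to 74 per WT library and 48 to 59 per Vps15LKO library. The hepatocyte markers fell with it, at a median of -1.48 in the deposited scaling and -0.76 in the total-read scaling, and their part in the result was not tested. In a bulk sample, fewer cells of a type and less RNA per cell cannot be told apart.

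**Figure D2:**
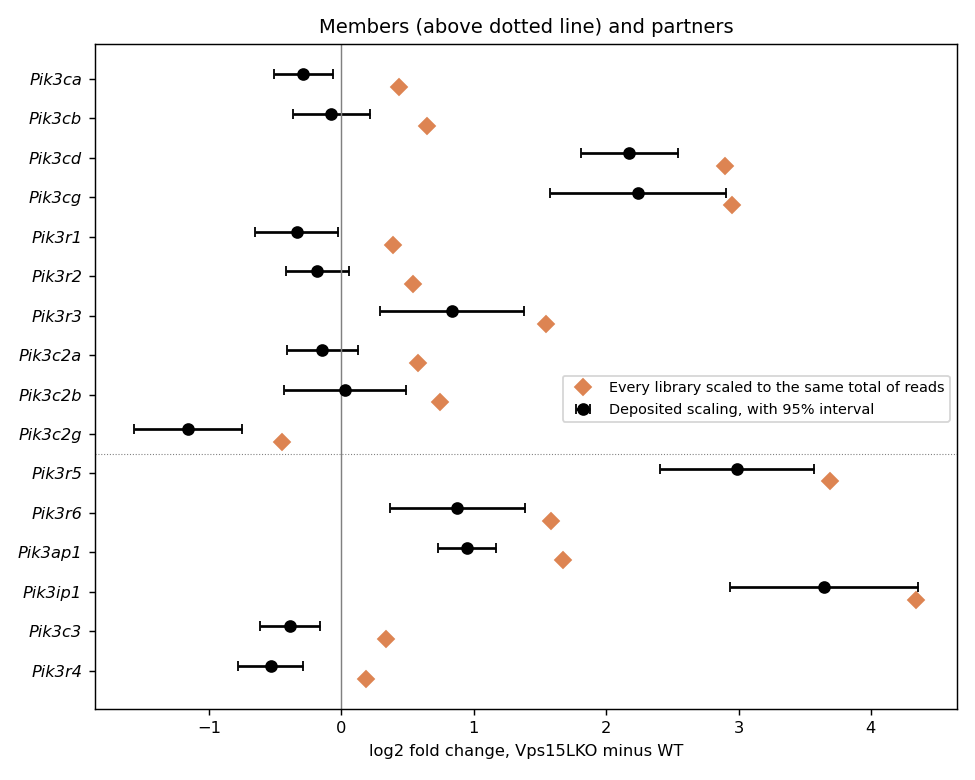
Log2 fold change (Vps15LKO minus WT, horizontal axis) of the 10 members, above the dotted line, and 6 partner genes, below it, with the deposited scaling (black points with 95% intervals, 3 livers per genotype) and with total-read scaling (orange diamonds). All diamonds lie to the right of their points, and Pik3ca, Pik3cb, Pik3r1, Pik3r2, Pik3c2a, Pik3c3 and Pik3r4 move from below 0 to above it, while Pik3c2g stays below 0 at -0.45.

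A level per kb of exon allows the members to be ordered within a genotype. In WT livers Pik3r2 was highest at 165 ± 19.6 normalized counts per kb (SD, n = 3), followed by Pik3r1 (95.9 ± 17.6) and Pik3ca (86.2 ± 5.83), whose ranges overlapped each other. Pik3c2a (47.3 ± 6.31) and Pik3cb (46 ± 3.92) overlapped as well, and stood apart from Pik3ca above and from Pik3cd below. Pik3cd (15.9 ± 3.49) overlapped Pik3c2b (11.9 ± 2.78), Pik3c2b overlapped Pik3r3 (7.62 ± 2.25), Pik3r3 overlapped Pik3c2g (7.37 ± 0.159), and Pik3cg was lowest at 3.96 ± 1.53.

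In Vps15LKO livers Pik3r2 was again highest (145 ± 2.11 normalized counts per kb), and Pik3cd had moved to 71.4 ± 4.04, a level whose range overlapped those of Pik3r1 (75.1 ± 4.1) and Pik3ca (70.5 ± 5.17). Pik3cg, the lowest member in WT livers, stood at 18.1 ± 0.876, above Pik3r3 (13.4 ± 0.957) and Pik3c2b (12 ± 1.42) with no overlap with Pik3r3. Pik3c2g became the lowest at 3.28 ± 0.515. The exon length used is the union over all transcripts, and parts of the order depend on it. Per kb of the longest transcript, a length tried after the values were seen, the Vps15LKO ranges were 85.4 to 95.6 for Pik3cd, 66.6 to 77.2 for Pik3ca and 100.2 to 111.6 for Pik3r1, none of which overlap. In WT livers the ranges of Pik3r1 (109.6 to 159) and Pik3ca (82.8 to 94.4) no longer overlapped either, and Pik3c2g, with 12647 bp of exon but 4407 bp in its longest transcript, was at 20.8 to 21.7, inside the range of Pik3cd (16.4 to 25.1). Pik3c2g was lowest in Vps15LKO livers with both lengths.

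The composition of each class within a library does not depend on the size factor, and it was compared as the share of a pool in normalized counts per kb. Of the class 1 catalytic pool, Pik3cd made up 8.51%, 12.4% and 10.4% in WT and 34.6%, 34.6% and 35.9% in Vps15LKO livers. The share of Pik3cg was 1.45%, 3.06% and 3.32% in WT and 8.77%, 8.66% and 9.25% in Vps15LKO livers. Both leukocyte-type subunits held a larger part of the pool in every Vps15LKO liver than in any WT liver.

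The share of Pik3ca was correspondingly lower, at 56.7% ± 4.05 (SD, n = 3) in WT and 34.6% ± 0.552 in Vps15LKO livers, and that of Pik3cb was 30.2% ± 1.31 and 21.4% ± 1.45. Shares of 1 pool sum to 100%, so a larger Pik3cd share lowers the others by construction. Which of Pik3cd and Pik3ca held more of the pool in Vps15LKO livers turned with the length, at means of 35.1% and 34.6% per kb of exon, 38.3% and 30.3% per kb of the longest transcript, and 28.8% and 41.2% without a length.

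In the class 1A regulatory pool, Pik3r2 held 61.5% ± 6.94 in WT and 62.2% ± 0.902 in Vps15LKO livers, and Pik3r1 held 35.7% ± 6.6 and 32.1% ± 0.859, both with overlap between genotypes. Without a length the order of these 2 turned, at means of 41.0% and 42.3% for Pik3r2 and 56.7% and 52.8% for Pik3r1. Per kb, Pik3r3 held 2.82% ± 0.792 and 5.72% ± 0.335, without overlap. The regulatory sum was 182% ± 12.6 of the class 1A catalytic sum in WT and 126% ± 12.5 in Vps15LKO livers, again without overlap. The level of this ratio depends on the length, at means of 228% and 148% per kb of the longest transcript and 140% and 103% without a length.

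In the class 2 pool, Pik3c2a held 70.9% ± 5.03 and 73.7% ± 2.16 and Pik3c2b 18% ± 4.76 and 20.7% ± 2.11, with overlap. Pik3c2g held 11.4%, 10.1% and 11.8% in WT and 6.34%, 6.23% and 4.5% in Vps15LKO livers, and with the length of the longest transcript 21.1% and 11.5% on average. The class 2 sum was 43.8% ± 1.45 of the class 1 catalytic sum in WT and 28.5% ± 3.09 in Vps15LKO livers. Per kb of the longest transcript the means were 60.9% and 34.8%, and without a length 58.5% and 40.5%. Of the 12 shares and ratios compared, 8 did not overlap between genotypes (9 with the longest transcript as length, the added one being Pik3c2a), and each of these had p = 0.1 in an exact two-sided permutation test, the smallest that 3 against 3 livers allow (adjusted p = 0.15, Benjamini-Hochberg over 12). None can pass 0.05 in this design.

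**Figure D3:**
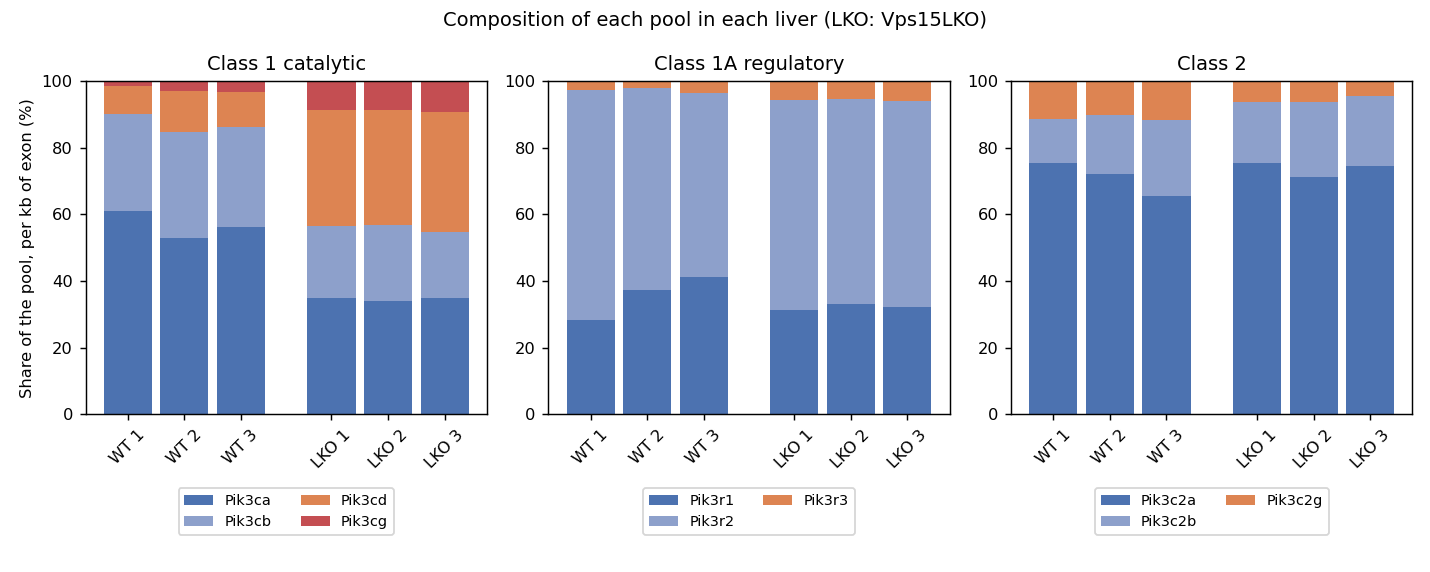
Share of each pool (percent of the summed normalized counts per kb of exon, vertical axis) taken by each member in each of the 6 livers, as stacked bars for the class 1 catalytic, class 1A regulatory and class 2 pools. Pik3cd and Pik3cg fill 8.51 to 12.4% and 1.45 to 3.32% of the class 1 catalytic pool in WT livers and 34.6 to 35.9% and 8.66 to 9.25% in Vps15LKO livers, and Pik3r1 and Pik3r2 keep overlapping shares.

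The 4 genes that regulate class 1 beside the members, 2 class 1B regulators, an adaptor and an inhibitor, were all called higher, though Pik3ip1, the inhibitor, was under 20 in every WT liver and entered the test only through the Vps15LKO livers. Pik3r5, the larger class 1B regulator, measured 13.3, 25 and 24.3 in WT and 148.9, 176 and 175 in Vps15LKO livers. Its log2 fold change was 2.99 ± 0.254 (SE, adjusted p = 1.88e-05, limma with Benjamini-Hochberg). With WT replicate 1 under 20, it too needed Vps15LKO livers to pass the filter. Pik3r6, the other class 1B regulator, measured 26.5, 35 and 22.9 in WT and 57.3, 49.4 and 48.8 in Vps15LKO livers. Its log2 fold change of 0.88 passed the test (adjusted p = 0.00777, limma) but was 0.22 and not called with quantile normalization.

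Pik3ap1, an adaptor that links B cell and Toll-like receptors to class 1A enzymes, measured 1840.4, 2072 and 1789 in WT and 3726, 3480.4 and 3791 in Vps15LKO livers (log2 fold change 0.95 ± 0.0966 SE). Pik3ip1, a transmembrane inhibitor of the catalytic subunits, measured 15.9, 12.5 and 9.44 in WT and 177, 109.4 and 236 in Vps15LKO livers, a ratio of means of 13.8 on 7 to 12 reads per WT library. It shares 91 bp of exon with Gm12592 on the opposite strand. Pik3c3, the class 3 catalytic partner of Vps15, measured 389, 387 and 363 in WT and 284, 311 and 274 in Vps15LKO livers (log2 fold change -0.39, adjusted p = 0.00738, limma), and was called higher at 0.33 with total-read scaling.

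Markers of leukocytes moved with Pik3cd and Pik3cg. All 9 pan-leukocyte markers rose (median log2 fold change 2.17, range 0.76 to 2.46), and summed over the list they reached 4394 to 4959 normalized counts per WT liver and 12389 to 14284 per Vps15LKO liver, with none at 0 in any group. The fold changes of Pik3cd (2.17) and Pik3cg (2.24) lie inside that range and that of Pik3r5 (2.99) above it. Of 10 macrophage and Kupffer cell markers 8 rose and 2 were not called (median 1.42). Summed over the 10, they reached 8664 to 9674 in WT and 25177 to 30169 in Vps15LKO livers. Of the 2 not called, Timd4 was lower in every Vps15LKO liver (74.3 to 163) than in any WT liver (164 to 191). Its log2 fold change was -0.62 (adjusted p = 0.0585, limma), or 0.10 with total-read scaling. Clec4f was at 0.40 with overlap (adjusted p = 0.0786, limma), and called higher at 1.12 with total-read scaling. The summed levels of the other leukocyte lists were 82.2 to 98.1 in WT and 302 to 335 in Vps15LKO livers for 8 T and NK cell markers, 59.7 to 101.1 and 110.2 to 129.8 for 5 B cell markers, and 67.5 to 79.6 and 369 to 449.7 for 5 neutrophil markers, with Ly6g at 0 in the WT livers. In these 3 lists 5, 1 and 2 markers were under 20 normalized counts in every WT liver and entered the test only through the Vps15LKO livers, so that only a rise could be called for them. Of the markers tested beside those, 2 of 2, 1 of 2 and 1 of 1 rose, some of them with fewer than 3 WT livers at 20 or more. The part of leukocytes in the rise of Pik3cd, Pik3cg, Pik3r5, Pik3r6 and Pik3ap1 was not tested.

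Ptprc (CD45), carried by nearly all leukocytes, measured 110.1, 194.9 and 210.3 in WT and 792, 826 and 683 in Vps15LKO livers. WT replicate 1, lowest for Pik3cg, was also lowest for Ptprc. Divided by Ptprc in the same library, Pik3cd was 0.449 to 0.735 in WT and 0.545 to 0.616 in Vps15LKO livers, and Pik3cg was 0.169 to 0.212 and 0.184 to 0.213, so both ratios overlapped between genotypes.

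Pik3r5 over Ptprc was higher in Vps15LKO livers (0.115 to 0.128 in WT and 0.188 to 0.257), while Pik3r6 (0.109 to 0.241 and 0.0599 to 0.0723) and Pik3ap1 (8.51 to 16.7 and 4.21 to 5.55) were lower over Ptprc, all 3 without overlap. Per 1000 normalized counts summed over the 9 pan-leukocyte markers, Pik3cd was 18.4, 24.9 and 19.7 in WT and 32.9, 33.5 and 33.9 in Vps15LKO livers, without overlap. Pik3cg on the same scale was 4.22, 8.31 and 8.43 in WT and 11.2, 11.3 and 11.8 in Vps15LKO livers, also without overlap. Lcp1, whose log2 fold change of 0.76 was the smallest of the 9, made up 61.0 to 65.8% of that sum in WT and 35.7 to 39.3% in Vps15LKO livers, and the 2 ways of dividing gave different outcomes. Both ratios were chosen after the values were seen and carry no test.

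**Figure D4:**
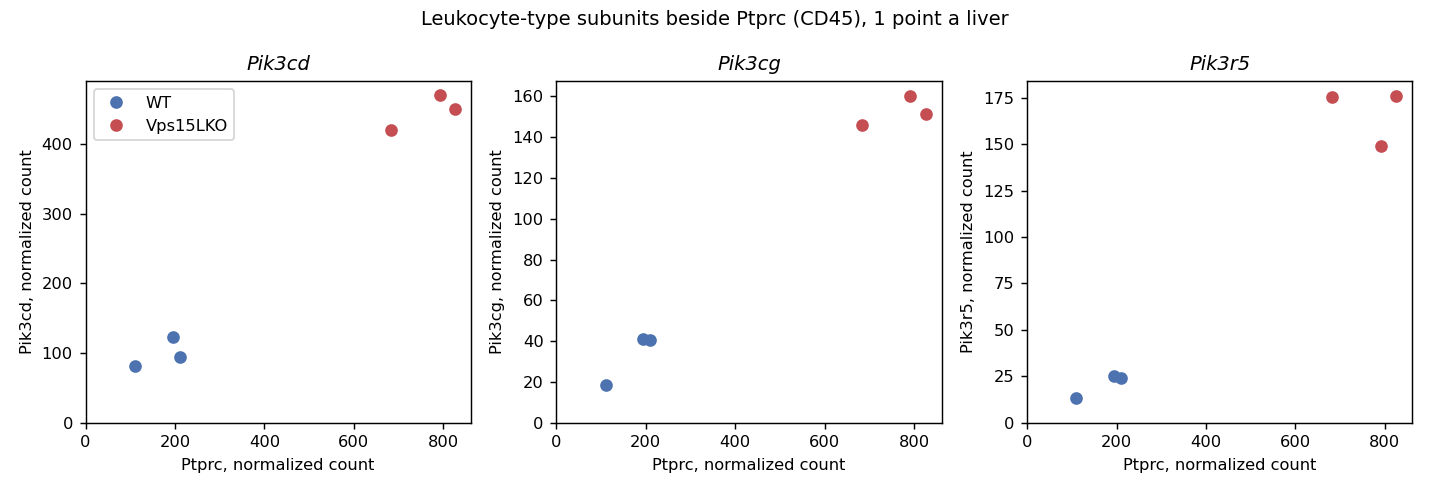
Normalized count of Pik3cd, Pik3cg and Pik3r5 (vertical axes) against that of Ptprc (horizontal axis) in the 6 livers, with WT in blue and Vps15LKO in red and both axes from 0. The WT livers lie at 110.1 to 210.3 normalized counts of Ptprc and the Vps15LKO livers at 683 to 826, and all 3 genes are higher in the second group.

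Other cell types and proliferation also differed between the genotypes. All 8 stellate cell and fibroblast markers rose (median log2 fold change 1.85). So did 6 of 6 cholangiocyte and 6 of 6 proliferation markers, leaving out 1 and 2 that were under 20 in every WT liver. Of those kept, some cholangiocyte and most proliferation markers reached 20 in fewer than 3 WT livers. They too needed Vps15LKO livers to pass the filter, which favoured a rise. Of 9 endothelial markers 6 rose and 3 fell (median 0.39), or 7 and 0 with total-read scaling. Summed levels were 6666 to 7149.8 in WT and 28034 to 32842 in Vps15LKO livers for stellate cells and fibroblasts, 784 to 846 and 2142 to 3635 for cholangiocytes, 101.2 to 379 and 2765 to 2911 for proliferation, and 7720.03 to 8493 and 7262 to 8815 for endothelium. Their part in the change of Pik3r3, Pik3cd or any other member was not tested.

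Around the members, 70 further genes of the pathway were read from 6 lists, and 69 passed the filter. Of these, 28 rose, 21 fell and 20 were not called, beside the 33.5% and 33.0% of all genes, and the median log2 fold change was 0.049. With total-read scaling 51 were called higher and 3 lower, beside 66.7% and 11.1% of all genes, the shares against which the counts of each list below stand.

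Upstream, 5 of 12 receptors and docking proteins rose and 5 fell (median -0.042), or 7 and 1 with total-read scaling (median 0.68). Grb10, an adaptor that restrains insulin receptor signalling, had the largest rise, from 70.3, 60 and 101.1 in WT to 743, 656 and 1091 in Vps15LKO livers (log2 fold change 3.41). Egfr, the epidermal growth factor receptor, had the largest fall, from 8046, 9758 and 22051 to 1335, 2675 and 1567 (-2.76 ± 0.382 SE, adjusted p = 0.000266, limma). WT replicate 3 was far above the other WT livers, and the fold change without it was -2.32. Among small GTPases of the kind that bind and activate class 1 catalytic subunits, 5 of 8 rose and 1 fell (median 0.56), or 7 and 0 with total-read scaling. Rras rose from a mean of 586 to 1479 (1.35), and Hras fell from 714 to 511 (-0.48, or 0.24 and not called with total-read scaling).

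Of 8 phosphatases of PIP3 and phosphatidylinositol 3,4-bisphosphate, 4 rose and 1 fell (median 0.25), or 6 and 0 with total-read scaling. The largest rise was that of Inpp5j, a 5-phosphatase, with 3 reads over the WT libraries and 137 over the Vps15LKO libraries, a ratio of 26.5 (95% exact counting interval 8.88 to 130.1, which leaves out the spread between livers). It was under 20 normalized counts in every WT liver and entered the test only through the Vps15LKO livers. Without it 3 of 7 phosphatases and 27 of 68 pathway genes rose. Some of the genes that remain, a phosphatase among them, reached 20 in fewer than 3 WT livers and also needed Vps15LKO livers to pass. None of the 8 myotubularins, the 3-phosphatases that act on the products of class 2 and class 3 enzymes, rose and 4 fell (median -0.25). With total-read scaling 5 were called higher and 2 lower (median 0.47). The largest of these falls was that of Mtmr7, from a mean of 157 to 72.2 (-1.11), which held at -0.39 with total-read scaling.

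Among the kinases that make the PI3K substrates or use PI3P, 4 of 10 tested rose and 2 fell (median 0.089), or 9 and 0 with total-read scaling, and Pip5k1b did not pass the filter. Pip4k2a rose from a mean of 166 to 519.6 (log2 fold change 1.64). Pi4k2a fell from 1506 to 1087 (-0.47), and was at 0.25 with total-read scaling. Of 23 effectors from Akt to mTOR, 10 rose and 8 fell (median 0.031), or 17 and 0 with total-read scaling. Dapp1, a PIP3-binding adaptor of B cells, had the largest rise, from 19.9, 22.5 and 13.5 to 139, 132.9 and 145 (2.86). It reached 20 in fewer than 3 WT livers and needed Vps15LKO livers to pass the filter. Phlpp1, a phosphatase of Akt, had the largest fall, from a mean of 728 to 378 (-0.94, or -0.22 and not called with total-read scaling).

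**Figure D5:**
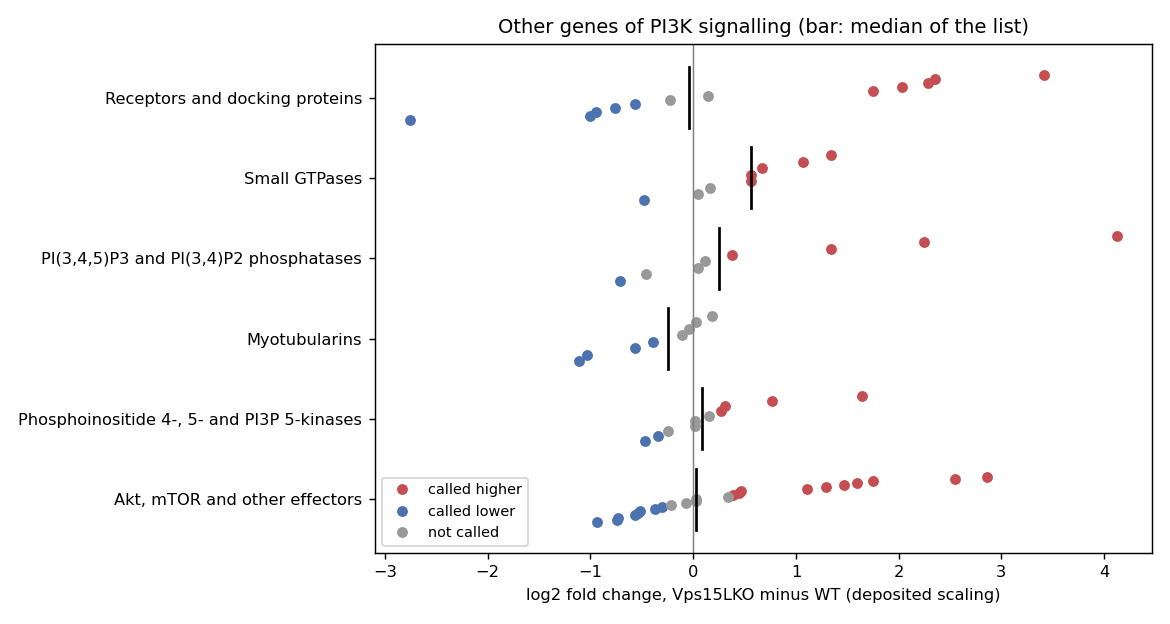
Log2 fold change (Vps15LKO minus WT, deposited scaling, horizontal axis) of the 69 tested pathway genes in their 6 lists, coloured by the call (red higher, blue lower, grey not called), with the median of each list as a black bar. The medians lie between -0.25 for the myotubularins, which have no red point in this scaling, and 0.56 for the small GTPases.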

How the data were processed

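Poly(A) RNA of 6 livers was sequenced. The authors used SOAPnuke to filter reads, HISAT2 to align them to GRCm38, featureCounts to count per gene and DESeq2 to normalize. Tool versions and the strand and multi-mapping settings are not given in the sources used here. The authors' deposited signal is thus the reads of a gene over the size factor of its library. In every library 100% of values came to whole reads once divided by the smallest step (within 0.01 reads), so whole reads were recovered, and 1 read was worth 1.25 to 1.35 normalized counts (WT) or 0.707 to 0.81 (Vps15LKO).

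Symbols came from GENCODE M21 and starts from RefSeq, and all 164 listed genes and all 10 members were matched. The 15430 genes that reached 20 normalized counts in 3 or more of the 6 livers were compared on log2(normalized count + 1) with limma 3.58.1 (trend) in R 4.3.3 and Benjamini-Hochberg adjustment, a scale that understates changes of low genes. Calls needed a fold of 1.2 or more and an adjusted p below 0.05. The script was tested on simulated data. The count test on recovered reads, edgeR 4.0.16, called 5170 genes higher and 5150 lower, beside 5163 and 5099. DESeq2 1.42.0 and voom were other alternatives. Shares were compared by exact permutation.

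The members and lists were chosen with earlier results of these data known. Named genes are the members, 6 partners, the called gene of largest rise and of largest fall in each pathway list, Alb, Ptprc, markers at 0 in all 6 livers (there were 0) and genes whose exons overlap a member. One gene that this rule names is not reported here. Lcp1, Ly6g, Timd4, Clec4f, Pip5k1b and Gm12592 were named after their values were seen. Replicates of a genotype differed beyond sampling noise (chi-square per gene 14.0 to 36.4). Replicate numbers run from 1 to 3 in both genotypes, and the labels tie none to a shared litter or batch.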

Additional observations from a re-analysis of the deposited data

How the results depend on the processing

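Total-read scaling turned the direction of 9 of the 28 named log2 fold changes. With total-read scaling 9 members were called higher and 1 lower, 51 pathway genes higher and 3 lower, and 10299 of all genes higher and 1712 lower. Those that turned with it were Pik3ca (0.44), Pik3cb (0.65), Pik3r1 (0.39), Pik3r2 (0.54), Pik3c2a (0.58), Pik3c3 (0.33), Pik3r4 (0.19), Hras (0.24) and Pi4k2a (0.25). Total reads were alike between the genotypes while size factors were not, which is how this alternative is built. Members called lower numbered 4 with upper-quartile scaling and 1 each with TMM scaling, quantile normalization, limma without a trend, a fold of at least 1.5 and an adjusted p under 0.01. With a fold of at least 1.5, 10 pathway genes were called lower. The sign of Pik3c2b turned with upper-quartile scaling (-0.069) and quantile normalization (-0.40). The cause of the shifts that come from no threshold or scaling was not tested.

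With 1 liver left out, members called higher stayed at 3 and members called lower ranged from 1 to 2. The log2 fold change of Pik3cb then ranged from -0.13 to 0.037 and that of Pik3c2b from -0.18 to 0.16, and the difference in the Pik3r2 share ranged from -2.58 to 4.32 percentage points. Same-numbered livers did not deviate together (correlations -0.00992, -0.0114 and 0.0485), so the numbers were not taken as pairs. With the replicate block, 3 members were called higher and 3 lower, the added one being Pik3r1 (adjusted p = 0.0329 by limma), 26 and 21 pathway genes, and 5065 and 4983 of all genes. Pik3cg was not tested under the filter of 20 normalized counts in every liver. Depth limits Pik3cg, Pik3r3, Pik3r5, Pik3r6 and Pik3ip1, which rest on 7 to 39 reads per WT library.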
